A study of Homo sapiens with 12 samples.

Results

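The starts of 8 genes that mark luminal and epithelial breast cells were examined for H3K9ac and H3K9me2 in MDA-MB-231 cells exposed to nitric oxide and in untreated cells. The genes were ESR1, PGR, ERBB2, GATA3, FOXA1, TFF1, CDH1 and EPCAM, picked by name, and each was represented by the window of 5 kb either side of a fixed start on hg19. These 8 windows stand beside 303405 non-overlapping windows of 10 kb along 23 chromosomes. MDA-MB-231 is a human triple negative breast adenocarcinoma line, so both conditions share 1 genetic background. Cells were serum starved overnight, and treated cells were then kept for 24 h with DETA/NO, a slow nitric oxide donor, at 500 µM, and untreated cells had no donor. Chromatin immunoprecipitation with sequencing (ChIP-seq) was run for each mark on 2 biological replicates per condition, so 4 libraries carried H3K9ac peaks and 4 carried H3K9me2 islands.

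Luminal breast cells depend on the estrogen receptor (encoded by ESR1), which works with the pioneer factor FOXA1 and the transcription factor GATA3 and switches on targets such as the progesterone receptor gene PGR and the secreted trefoil peptide gene TFF1. ERBB2 encodes the receptor tyrosine kinase HER2. The triple negative label means that a tumour lacks both hormone receptors and excess HER2. CDH1 encodes E-cadherin, the adhesion molecule of epithelial junctions that is often silenced in mesenchymal-like tumour cells, and EPCAM encodes an epithelial surface adhesion protein. Acetylation of lysine 9 of histone H3 (H3K9ac) is found at active gene starts, and dimethylation of the same residue (H3K9me2) covers broad silent domains. The lists show where a mark was called, not RNA or protein, and they name no genes, so markers of the cell type were not analysed here beyond the 8 starts.

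The windows on hg19, counted from 1, were chromosome 6 from 152123814 to 152133814 for ESR1, chromosome 11 from 100995544 to 101005544 for PGR and chromosome 17 from 37851254 to 37861254 for ERBB2. Those of the transcription factors were chromosome 10 from 8091667 to 8101667 for GATA3 and chromosome 14 from 38059239 to 38069239 for FOXA1. The remaining windows were chromosome 21 from 43781644 to 43791644 for TFF1, chromosome 16 from 68766195 to 68776195 for CDH1 and chromosome 2 from 47591287 to 47601287 for EPCAM. Distances are given along the direction of transcription, with 0 at the start and negative values upstream.

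The 250 bases upstream of a pair of these starts are shown because FOXA1 carried H3K9ac across its start in both treated libraries, while most of the PGR window lay under H3K9me2. They are RefSeq sequences on GRCh38.p14, from the only FOXA1 entry and from the outermost of 3 PGR entries. Whether these are the very starts used on hg19 was not checked between builds. The stretches may thus be shifted against the peaks and islands described below. Both run 5′ to 3′ on the minus strand, at chr14:37595250-37595499 and chr11:101129814-101130063, and capitals mark CG dinucleotides.
FOXA1: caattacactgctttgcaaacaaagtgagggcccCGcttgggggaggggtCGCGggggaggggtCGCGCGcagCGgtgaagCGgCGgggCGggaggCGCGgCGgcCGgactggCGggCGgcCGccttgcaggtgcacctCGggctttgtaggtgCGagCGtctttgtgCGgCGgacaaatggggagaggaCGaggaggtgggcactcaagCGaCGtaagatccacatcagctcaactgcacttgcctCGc
PGR: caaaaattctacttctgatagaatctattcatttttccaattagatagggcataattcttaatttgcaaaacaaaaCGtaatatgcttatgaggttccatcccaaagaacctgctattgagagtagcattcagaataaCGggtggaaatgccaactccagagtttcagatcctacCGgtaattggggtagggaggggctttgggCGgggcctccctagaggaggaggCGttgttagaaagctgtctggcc
The FOXA1 stretch holds 26 CG dinucleotides and the PGR stretch 5, against a median of 11 over 35116 upstream stretches of 250 bases in the table. Both hold GGGCGG on one or the other strand, as do 42.6% of all stretches. Of the 8 genes, 5 had entries, and several starts are listed for some of them. CG counts ran from 2 to 11 over 6 ESR1 entries, from 5 to 12 over the PGR entries and from 4 to 30 over 6 GATA3 entries, and the ERBB2 entry had 23. Which ESR1, GATA3 or ERBB2 entry is the start used here was not settled between builds.

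H3K9ac was called in both treated libraries at 4 of the 8 starts, ERBB2, FOXA1, CDH1 and EPCAM, and at those 4 the treated libraries had more of the window covered than either untreated library. Such a separation was found in 6.68% of all genome windows and in 15.6% of those with a peak in any library. Among genome windows with a peak in all 4 libraries it was found in 77.9%. The genome windows are not gene starts, and their share with a peak in both treated libraries was not computed. TFF1 had a peak in 1 untreated library, and ESR1, PGR and GATA3 had none within 5 kb in any library. Windows with no peak in any of the 4 libraries made up 57.1% of all genome windows, and windows with a peak in all 4 made up 5.26%. ERBB2 and EPCAM had a peak in all 4 libraries. Over the 8 windows, H3K9ac covered a mean of 677 and 656 bp per window in the treated libraries and of 467 and 250 bp in the untreated ones, replicates 1 and 2 in that order, as throughout. The full peak lists covered 52.1 and 37.8 Mb in treated and 48.3 and 22.8 Mb in untreated cells, and libraries were not scaled. The median difference, treated minus untreated, was 219 bp over the 8 windows, against -107 bp over 130049 genome windows with a peak in any library and 1157.5 bp over 11384 windows centred on regions that the authors kept as reproducible in both conditions. Of the 130049 windows, 37.4% had a peak in untreated replicate 1 alone. In that list 44.3% of peaks had the narrowest width, 238 bp.

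**Figure D1:**
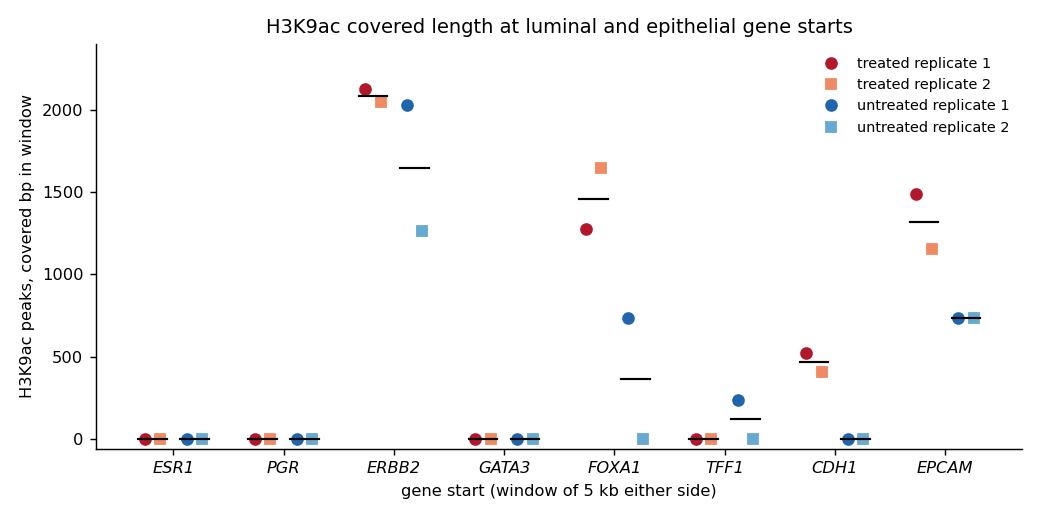
Base pairs covered by H3K9ac peaks within 5 kb of each gene start (vertical axis), with a point per library and a black line at the mean of each condition. At ERBB2, FOXA1, CDH1 and EPCAM both treated points lie above both untreated points, and ESR1, PGR and GATA3 sit at 0 in all 4 libraries.

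ESR1 and PGR, the hormone receptor genes, had no H3K9ac peak within 5 kb in any library. The nearest ESR1 peaks were 42.4 and 33.6 kb from the start in treated cells and 61.7 and 16.0 kb in untreated cells. These distances overlap between conditions. No reproducible region lay nearer to ESR1 than 353 kb in the treated set and 354 kb in the untreated set. For PGR the nearest peaks were 106 and 27.3 kb away in treated cells and 7.57 and 61.4 kb in untreated cells, and the nearest reproducible regions were 389 and 442 kb away in the treated and untreated sets.

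ERBB2 had the longest H3K9ac coverage of the 8 in both conditions. Peaks covered 2126 and 2046 bp of its window in treated cells, against 2030 and 1266 bp in untreated cells. The treated libraries lay above the untreated ones, but untreated replicate 1 fell short of treated replicate 2 by a small margin. The main peak ran from -729 to 1396 bp and from -691 to 1240 bp in treated cells and from -353 to 1284 bp in untreated replicate 1. Untreated replicate 1 had a further peak of 392 bp about 3 kb upstream. In untreated replicate 2 the main peak was split into -256 to -43 bp and 84 to 1135 bp, leaving the start base itself uncovered. The upstream edge of the main peak thus reached farther in both treated libraries, while the downstream edge of untreated replicate 1 lay between those of the treated libraries. By the authors' score per peak, the ERBB2 peak ranked 7084 of 79538 and 5244 of 69151 in the treated lists and 2958 of 120630 and 11326 of 59724 in the untreated lists. The mean was 2086 bp ± 56.6 in treated and 1648 bp ± 540 in untreated cells (SD, n = 2), a ratio of 1.27. The difference of 438 bp shrank to 56.0 bp without untreated replicate 2 and grew to 820.0 bp without untreated replicate 1.

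FOXA1 showed the largest difference in covered length of the 8. H3K9ac covered 1278 and 1644 bp in treated cells, against 733 and 0 bp in untreated cells. The start base lay under a peak in both treated libraries and in neither untreated library. A peak of untreated replicate 1 came within 14 bp of it, so this contrast depends on the exact base taken as the start. In treated replicate 2 a continuous peak spanned -976 to 667 bp, and in treated replicate 1 there were 3 peaks, the largest from -92 to 689 bp. Untreated replicate 1 had smaller peaks on either side of the start, at -370 to -14 bp and 257 to 632 bp, and the nearest peak of untreated replicate 2 was 47.3 kb away. The mean was 1461 bp ± 259 in treated and 366.5 bp ± 518 in untreated cells (SD, n = 2), a ratio of 3.99, and the difference of 1094.5 bp became 728 bp, and the ratio 1.99, without untreated replicate 2. The authors' reproducible set of treated cells held a FOXA1 region of 1666 bp, ranked 15525 of 21098 by their score, and the nearest region of the untreated set was 396 kb away. RefSeq lists TTC6 next to this start on the opposite strand, and the peaks upstream cannot be assigned to 1 of the genes.

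GATA3 had no peak within 5 kb of the start used here, but an acetylated stretch lay farther upstream in all 4 libraries. Within 10 kb, peaks covered 2311 and 1542 bp in treated cells and 1576 and 810 bp in untreated cells. The conditions overlapped, since untreated replicate 1 lay above treated replicate 2, and limma, a linear model fitted across all windows, gave an adjusted p of 0.553. Both reproducible sets held a region there, from -9846 to -7536 bp in treated cells, which is 2311 bp wide, and from -9325 to -7988 bp in untreated cells, which is 1338 bp wide. A further treated reproducible region lay downstream, from 15151 to 15953 bp, where the untreated libraries had no peak. RefSeq lists several GATA3 starts and, on the opposite strand near them, the lncRNA gene GATA3-AS1, and which of these, if any, lies under the upstream region was not settled without an hg19 annotation. This stretch was described after its values were seen.

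**Figure D2:**
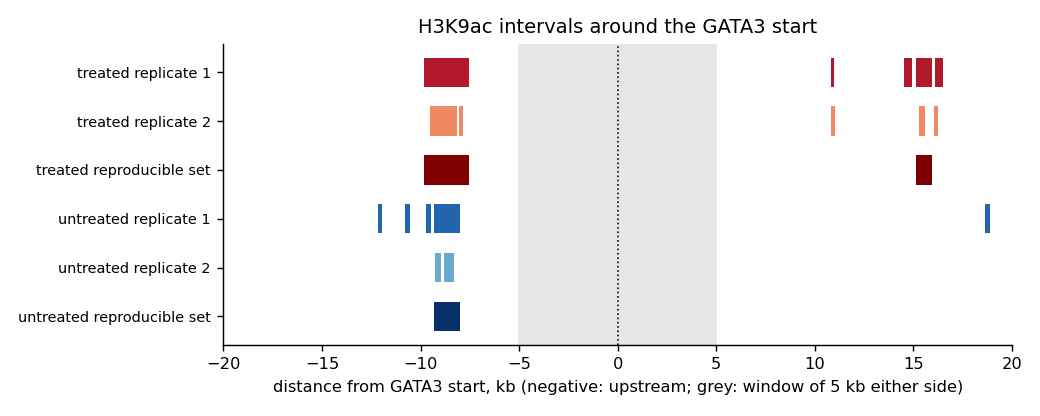
H3K9ac intervals by distance from the GATA3 start in kb, for each library and for the authors' reproducible set of each condition, treated in red shades and untreated in blue. The grey window of 5 kb either side is empty in every row, and all 6 rows have an interval between -9846 and -7536 bp.

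TFF1, a classical estrogen-induced gene, carried 238 bp of H3K9ac in untreated replicate 1 and 0 bp in both treated libraries and in untreated replicate 2. This peak, at -852 to -615 bp, had the narrowest width in its list, which 44.3% of that list's 120630 peaks share. A peak in untreated replicate 1 alone was found in 37.4% of the genome windows that had any peak. Within 50 kb, H3K9ac covered 0.220 and 0.231 kb in treated cells and 1.70 and 0.175 kb in untreated cells.

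CDH1 had short H3K9ac peaks in both treated libraries and in neither untreated library. Coverage was 524 and 406 bp in treated cells, against 0 and 0 bp in untreated cells. The peaks ran from 305 to 773 bp and from 93 to 498 bp downstream of the start, and the remaining 55 bp of treated replicate 1 came from a 99 bp peak at the upstream edge of the window. The CDH1 peaks were of middling rank, 22705 of 79538 and 42189 of 69151 by the authors' score, and neither reached the authors' reproducible set. The nearest region was 106 kb downstream in the treated set and 29.9 kb upstream in the untreated set. In the untreated libraries the nearest peaks were 23.6 and 29.9 kb upstream. A peak in both treated and neither untreated library was found in 1.57% of all genome windows. Keeping the higher-scoring 50% of each list removed the peak of treated replicate 2 and lowered the mean difference to 234.5 bp, against 465 bp with all peaks.

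EPCAM was acetylated just downstream of its start in every library. Its peaks covered 1487 and 1155 bp in treated cells and 732 bp in each of the untreated libraries, so the conditions did not overlap. They ran from -2 to 1484 bp and from 151 to 1305 bp in treated cells, and from 121 to 852 bp and 158 to 889 bp in untreated cells. The downstream edge was farther from the start in both treated libraries by more than the distance between replicates, and the upstream edges of the conditions interleaved. The mean was 1321 bp ± 235 in treated cells and 732 bp ± 0 in untreated cells (SD, n = 2), a difference of 589 bp and a ratio of 1.80.

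**Figure D3:**
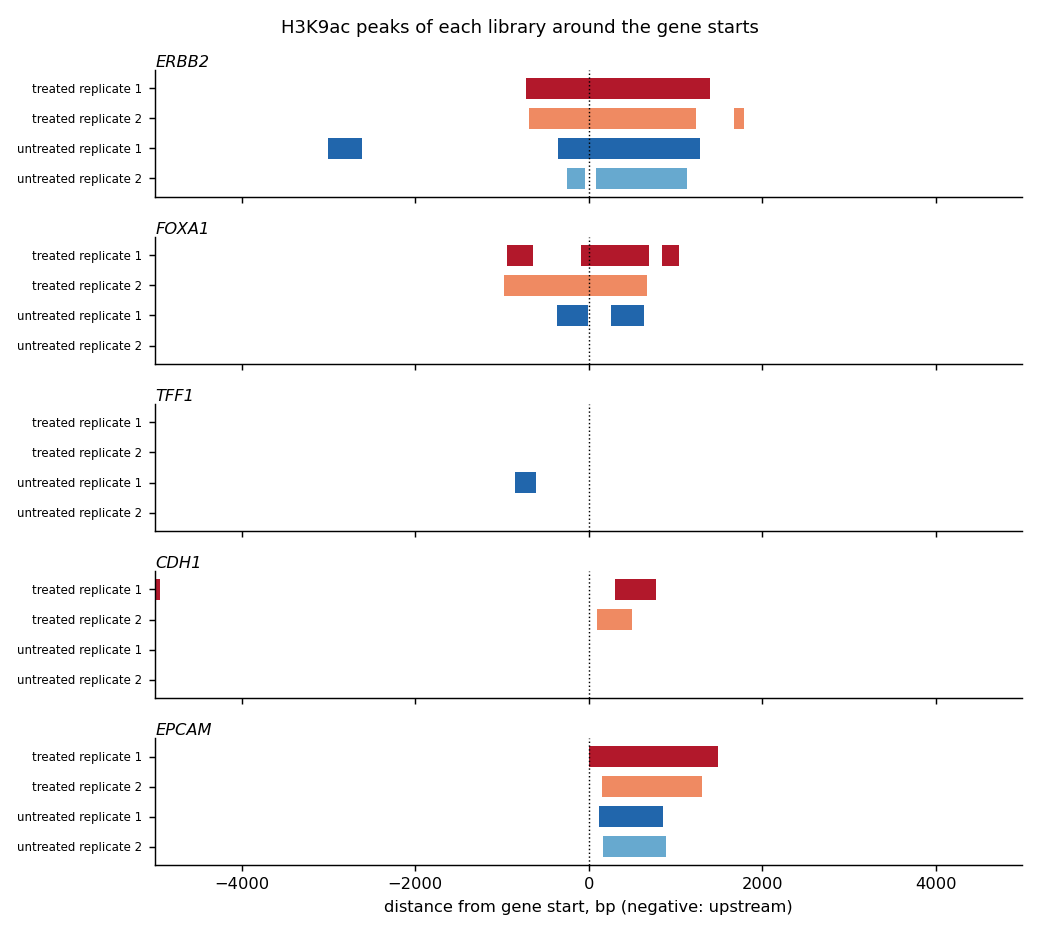
H3K9ac peaks of each library (bars) by distance from the gene start in base pairs, for the 5 windows that held any peak, with treated libraries in red shades above untreated ones in blue. The main treated peak reaches farther upstream at ERBB2 and farther downstream at EPCAM, and CDH1 has peaks in the treated rows alone. FOXA1 is covered across its start in treated cells, and untreated replicate 1 has peaks close by on either side of that start.

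Because all windows are of equal length, their covered lengths can be ordered. In treated cells the order was ERBB2, FOXA1, EPCAM and CDH1, with the other 4 at 0, and FOXA1 and EPCAM overlapped in their libraries. In untreated cells it was ERBB2, EPCAM, FOXA1 and TFF1, with the other 4 at 0, and the FOXA1 libraries, at 733 and 0 bp, spanned those of EPCAM and of TFF1. Treated coverage of the window was 20.5 to 21.3% at ERBB2, 12.8 to 16.4% at FOXA1, 11.5 to 14.9% at EPCAM and 4.06 to 5.24% at CDH1. Set against the 11384 windows on shared reproducible regions, the treated level of ERBB2 was at or above 28.1% of them, FOXA1 9.80%, EPCAM 7.27% and CDH1 0.281%. Among all genome windows with a peak in any library, the treated level was at or above 94.1% for ERBB2, 91.1% for FOXA1, 90.3% for EPCAM and 83.8% for CDH1.

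The share of windows with both treated libraries above the untreated ones was 77.9% among genome windows with a peak in all 4 libraries and 86.1% among the windows on shared reproducible regions. Windows of these kinds were chosen for H3K9ac in both conditions, which FOXA1, with peaks in 3 libraries, and CDH1, with peaks in 2, do not meet. Among the windows on shared regions, the treated minus untreated difference of ERBB2 was at or above 10.1% of them, of CDH1 11.0%, of EPCAM 16.6% and of FOXA1 46.5%. Among all genome windows with a peak in any library, the same differences were at or above 86.8% for ERBB2, 87.2% for CDH1, 89.2% for EPCAM and 94.8% for FOXA1. The differences were thus high among all windows with a peak, of which 37.4% had one in untreated replicate 1 alone. Except at FOXA1, they were low among windows with reproducible H3K9ac in both conditions. In the reproducible sets, the ERBB2 region was 2126 bp wide in treated and 1638 bp in untreated cells, a ratio of 1.3, and the EPCAM region was 1487 bp wide in treated and 769 bp in untreated cells, a ratio of 1.93. Over 9493 regions matched 1 to 1 between the sets the median ratio was 1.65, with quartiles of 1.35 and 2.12. The ERBB2 ratio was at or above 20.2% of these and the EPCAM ratio 67.6%, each from 1 set per condition and so without an error. Read depth is unknown and untreated replicate 2 had the fewest peaks, 59724 against 69151 to 120630 in the other H3K9ac libraries. The mean difference over the 8 windows was 308 bp, and 200.0 bp without untreated replicate 2. How far read depth or the number of peaks in this list shaped the differences was not tested.

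**Figure D4:**
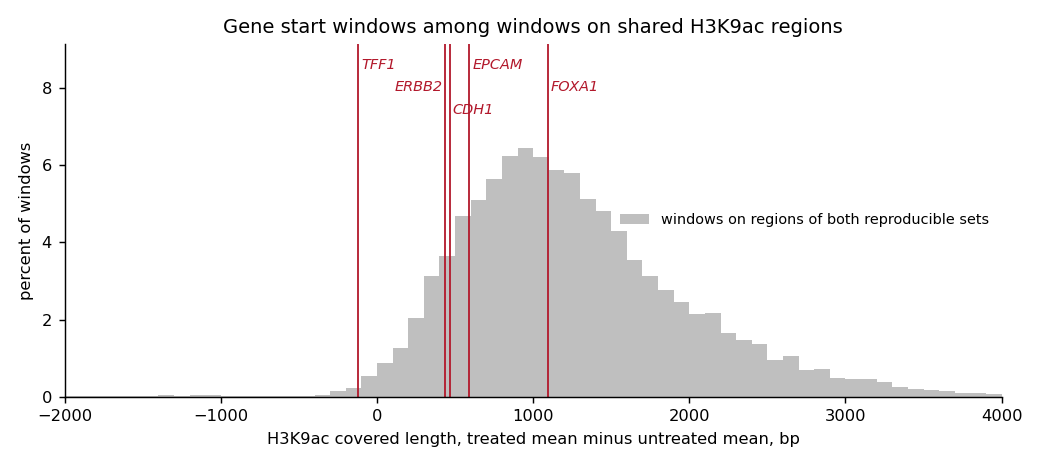
Distribution of the treated minus untreated H3K9ac covered length (horizontal axis, bp) over windows of the same width centred on regions of both reproducible sets (grey, percent of windows), with a red line for each of the 5 gene start windows that held a peak. FOXA1 lies near the middle at 1094.5 bp, ERBB2, CDH1 and EPCAM lie in the lower part at 438 to 589 bp, and TFF1 lies below 0.

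No gene start passed the test across the genome. limma was fitted to the arcsine square root of the covered share over 130054 windows, the 5 gene start windows with a peak among them, and called 740 (0.569%) higher and 7 (0.00538%) lower in treated cells at a Benjamini-Hochberg adjusted p under 0.05. For FOXA1 the limma difference was 0.25 ± 0.081 (SE; adjusted p = 0.184, unadjusted 0.00469), and for CDH1 it was 0.22 ± 0.088 (adjusted p = 0.381, unadjusted 0.022). The FOXA1 difference was 0.12 without untreated replicate 2 and 0.39 without untreated replicate 1. ERBB2 at 0.06, EPCAM at 0.10 and TFF1 at -0.08 each had an adjusted p of 0.549 in limma, and under quantile normalization ERBB2 turned to -0.08 and EPCAM to -0.01. Without untreated replicate 2 ERBB2 was at 0.0069 and TFF1 at -0.15, and without untreated replicate 1 ERBB2 was at 0.11. FOXA1 passed in limma with windows of 2 kb either side (adjusted p = 0.0063), where 5245 of 177357 windows were called higher. It also passed in limma with an equal number of top peaks per list (adjusted p = 0.00821), where 6463 of 95871 were called higher. Its adjusted p ran from 0.0063 to 0.646 over the alternatives other than a replicate block. CDH1 passed in limma with windows centred on reproducible regions (adjusted p = 0.0259), where 21.5% of windows were called higher. TFF1, lower in treated cells, passed in limma without untreated replicate 2 (adjusted p = 1.02e-05), a fit that called 55782 of 114148 windows lower and in which both treated TFF1 values are 0. An exact two-sided permutation test of each window gave p = 0.33 at ERBB2, FOXA1, CDH1 and EPCAM and 1 at TFF1, and 0.33 is the smallest that 2 libraries against 2 allow.

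The H3K9me2 lists held 14554 and 10590 islands in treated and 12573 and 14457 in untreated cells. H3K9me2 was called at PGR and at none of the other 7 starts. Islands covered 75 and 70.0% of the PGR window in treated cells and 70.0 and 70.0% in untreated cells. The means were 7251 bp ± 354 in treated and 7001 bp ± 0 in untreated cells (SD, n = 2), and the conditions overlapped. Windows with no island in any library made up 78.8% of all genome windows, and windows at least 50% covered in all 4 made up 3.03%. limma gave PGR a difference of 0.03 ± 0.187 (SE; adjusted p = 1), and it called 0 of 64217 windows with an island (0% in each direction), with 1402 higher and 1741 lower at an unadjusted p under 0.05.

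The PGR start lay at a break between H3K9me2 islands, and the break was found in all 4 libraries. On the gene side an island began 2544 bp downstream of the start in both treated libraries and in untreated replicate 1, and 3044 bp downstream in untreated replicate 2. On the upstream side an island ended at 43 bp in treated replicate 1 and untreated replicate 2, and at -457 bp in treated replicate 2 and untreated replicate 1. If the RefSeq start is the same, the PGR stretch printed above was inside an island in 1 library of each condition and outside it in the other, a difference of a single 500 bp step of the island edges. The break was 2500 and 3000 bp in treated cells and 3000 bp in each untreated library. Breaks of up to 3000 bp were 17.7 and 18.6% of those between neighbouring islands in the treated lists and 19.2 and 18.8% in the untreated lists, and none was shorter than 2000 bp. Within 50 kb of the start, 2 stretches were free of islands in every library: 44 to 2543 bp, at the start of the gene, and -20956 to -18957 bp. The RefSeq gene PGR-AS1 overlaps the PGR start.

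Around this break H3K9me2 covered most of the surroundings. Within 50 kb of the PGR start islands covered 89.0 and 81.0% in treated cells and 88.0 and 94.0% in untreated cells, and within 500 kb they covered 61.4 and 60.4% in treated and 60.1 and 57.3% in untreated cells. The conditions overlapped within 50 kb. Within 500 kb they did not, but treated replicate 2 exceeded untreated replicate 1 by less than the untreated replicates differed. The share of genome windows of 500 kb either side with such a separation was not computed. The upstream break was 16000 bp wide in treated replicate 2 and 2000 bp in treated replicate 1, against 4500 and 3000 bp in untreated cells. H3K9ac within 500 kb of PGR covered 5.76 and 3.6 kb in treated and 15.2 and 4.33 kb in untreated cells, and these values overlapped.

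**Figure D5:**
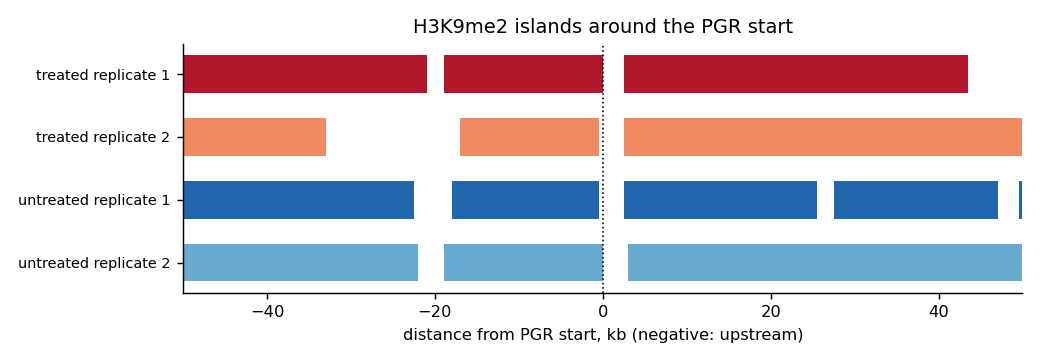
H3K9me2 islands of each library (bars) by distance from the PGR start in kb, treated libraries in red shades above untreated ones in blue. All 4 rows share a gap that begins near the start and ends within the gene, 2544 or 3044 bp from the start at the next island, and a second gap upstream that is widest in treated replicate 2.

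The other 7 starts differed in their distance from H3K9me2. Islands within 500 kb were found only at GATA3, where treated replicate 1 had 13.5 kb and the other 3 libraries 0, and at FOXA1, where islands covered 69.5 and 21.0 kb in treated cells and 7.00 and 36.5 kb in untreated cells. The FOXA1 values overlapped between conditions. The nearest island to FOXA1 was 23.7 and 329 kb away in treated cells and 63.3 and 73.8 kb in untreated cells, and that of GATA3 was 61.7 and 627 kb away in treated cells and 711 and 848 kb in untreated cells. ESR1, although without H3K9ac, was 14.6 and 14.4 Mb from the nearest island in treated cells and 12.1 Mb in each untreated library. For ERBB2, TFF1, CDH1 and EPCAM the nearest island was between 1.06 and 34.8 Mb away. ESR1 and GATA3 were thus covered by neither mark within 5 kb in any library, as were 45.3% of all genome windows.

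The 4 H3K9ac starts also differed in their surroundings. Within 50 kb H3K9ac peaks covered 10.2 and 8.34 kb around ERBB2 in treated cells and 6.87 and 2.85 kb in untreated cells. Around EPCAM they covered 6.85 and 4.23 kb in treated and 3.76 and 2.70 kb in untreated cells. In both neighbourhoods the treated libraries lay above the untreated ones. The share of genome windows of 50 kb either side with such a separation was not computed. FOXA1 and CDH1 had less, with 1.68 and 1.86 kb around FOXA1 in treated cells against 2.52 and 0.176 kb in untreated cells, and with 1.09 and 0.406 kb around CDH1 in treated cells against 0.954 and 0.243 kb in untreated cells. At FOXA1 and CDH1 the conditions overlapped within 50 kb, although they did not within 5 kb.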

How the data were processed

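H3K9ac and H3K9me2 were mapped in MDA-MB-231 cells with 2 libraries per condition and mark, and 4 inputs were not analysed here. Chromatin was sheared to 200 to 500 bp, per the labels' protocols. Tools listed, per the submitters' processing notes, are SICER, MACS2, Picard, BWA 0.7.5 and Trimmomatic 0.32, with hg19. Their settings and what the inputs were used for are not stated there. The deposited lists give interval starts and ends, used as positions, and a score per peak or island by the authors, used only to rank within a list. The authors' reproducible sets, 1 per condition, carry a deposited −log10 value read as that of an irreproducible discovery rate. H3K9me2 ends name the last base.

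Covered length was computed in Python 3.11.15 with pandas 2.3.3 and numpy 2.4.6, at an overlap of at least 1 bp. limma 3.58.1 (R 4.3.3; mean-variance trend) was fitted to all 10 kb windows with an interval in any library together with the gene start windows that held one, and the others at 0 were left out. Libraries were not scaled. The genome windows are not gene starts, since no hg19 annotation was used. The sums were tested on simulated intervals. The fit was tested on values drawn from a normal distribution around the window means. Many of the real shares are 0, so that test does not cover how the fit behaves on them. All 8 genes are named. The genes and lists were chosen with earlier results of these data known. Depth is unknown. Biological replicates are as the labels call them. Alternatives were window width, score cuts, overlap, quantile normalization, a replicate block, another set of windows and leaving out each library.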

Additional observations from a re-analysis of the deposited data

How the results depend on the processing

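The mean H3K9ac difference over the 8 windows, 308 bp, was from 200.0 to 417 bp when a library was left out and from 241.5 to 333 bp with other window widths, score cuts or overlaps. It was not computed under the replicate block, quantile normalization or windows on reproducible regions, which apply to limma. The number of gene start windows that limma called in H3K9ac was 0, and it was 1 with windows of 2 kb either side and with an equal number of top intervals (FOXA1 in both), and 1 with windows centred on reproducible regions (CDH1, adjusted p = 0.0259, where limma called 21.5% of windows higher). It ranged from 0 to 1 when a library was left out. The call without untreated replicate 2 was TFF1, lower at an adjusted p of 1.02e-05, which rests on both treated libraries being at 0 and leaves 1 untreated library, assumed to vary like the treated ones. A replicate block in limma gave 1 called window in H3K9ac (FOXA1, adjusted p = 0.000461) and 0 in H3K9me2. Deviations of same-numbered libraries correlated at -0.0144 over H3K9ac windows and -0.0776 over H3K9me2 windows, and no label ties the numbers to a batch, so the numbers were not taken as pairs. In H3K9ac 130054 windows were tested, against 177357 with 2 kb either side and 95871 with equal numbers of top intervals. Over all windows, limma called 740 higher and 7 lower in H3K9ac. These counts were 5245 and 37 with 2 kb either side, 0 and 0 with 10 kb either side (5869 and 4000 at an unadjusted p under 0.05), 4378 and 33 with the higher-scoring 50%, 6463 and 53 with equal numbers, 293 and 10 with 50% of an interval inside, 4711 and 483 on reproducible regions, 8986 and 80 with the block and 1281 and 115 with quantile normalization. Leaving out a library gave 0 to 5873 higher and 0 to 55782 lower, and in H3K9me2 0 to 12669 higher and 0 to 2534 lower, against 0 in every other H3K9me2 setting.

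Under quantile normalization the limma difference turned to -0.0793 at ERBB2, -0.0085 at EPCAM and, for H3K9me2, -0.0136 at PGR. With the higher-scoring 50% of each list the mean H3K9me2 difference over the windows was -99.2 bp, against 31.2 bp with all islands, and that of PGR was -793.5 bp (limma -0.0825). This setting drops the upstream PGR island of treated replicate 2 and the gene-side island of untreated replicate 1 by construction. No H3K9me2 island had 50% of its length in a gene start window, so limma had no value there. limma called 0 gene start windows in H3K9me2 in every setting that gave a value. Interval lists limit what can be seen: a window without a peak is one in which none was called at an unknown depth.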
